A study of Mus musculus with 31 samples.

Results

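The 8 amplicon sequence variants (ASVs) described here are the Firmicutes rows of the table that compares forced loss with go-through-tube mice. An ASV is an exact 16S rRNA gene sequence that stands for a bacterial strain or a group of close strains. The members were chosen by phylum in the deposited taxonomy, and they are 8 of the 16 ASVs in that table and of the 25 distinct ASVs listed in the series. By family they are ASV170, ASV166 and ASV2945 of the Lachnospiraceae, ASV577, ASV614 and ASV815 of the Oscillospiraceae, and ASV506 of the Erysipelatoclostridiaceae. ASV127 belongs to the Clostridia vadinBB60 group, an order for which the taxonomy names no family. The other 8 rows are Bacteroidota.

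Colon contents were taken from male mice, all titled Rank1 and 6 to 8 weeks of age. In 6 of them the title gives forced loss and in 6 go-through-tube, and each library was taken as 1 mouse. The tube is that of the tube test, in which mice that meet head-on in a narrow tube win or retreat and so show their social rank. The labels give no strain, cage, genotype or protocol for either treatment, and no untreated Rank1 mice were analysed here. The comparison therefore sets these groups against each other and not against a baseline.

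Firmicutes of the mouse colon are mostly strictly anaerobic fermenters of plant fibre, sugars and amino acids. Lachnospiraceae and Oscillospiraceae are the main clostridial families of the gut and include many makers of short-chain fatty acids such as butyrate, which colon epithelial cells use as fuel. Erysipelatoclostridium lies in another class, the Bacilli, and includes sugar-fermenting species once placed in Clostridium. The vadinBB60 group is known mainly from environmental and gut 16S sequences.

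Values are reads per ASV and library. The 8 members held 2499 reads in all, which is 0.520% of the 480358 reads that the deposited fractions refer to, so each is a minor part of the community. The 16 listed ASVs summed to between 1317 and 9132 reads in forced loss libraries and between 882 and 2743 in go-through-tube libraries, and these sums are not depths, since only chosen ASVs are listed. Library depths were not used here. A mean of 40029.8 reads per library follows from the common total. The floor of 3 reads used below is 0.00749% of that mean. It was set here and is not a measured detection limit. A pair of libraries stood apart in the make-up of their listed reads. The Firmicutes share was 28.3% in forced loss replicate 1 against 1.80% to 5.63% in the other forced loss libraries. It was 48.8% in go-through-tube replicate 5, where ASV3 of Alloprevotella, the leading Bacteroidota, had 0 reads, against 7.20% to 8.92% in the other go-through-tube libraries.

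The rows of the table carry p-values under 0.05 for this same contrast. Differences in the members' reads between the groups are therefore given as descriptions of these mice with the fit across the table beside them, and they are not independent evidence of a direction.

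Patchy carriage, meaning reads in some mice and none in others, was the main feature of the listed Firmicutes. As these rows are scarce and carry p-values under 0.05 for this contrast, it cannot be taken as a trait of the phylum. Of the 48 values of the 8 members in each group, 20 were above 0 in forced loss mice and 29 in go-through-tube mice. Over all 16 listed ASVs, 62 and 65 of the 96 values in each group were above 0, a nearly equal share. The smallest value above 0 was 3 reads, and no value of 1 or 2 occurred in any of the 16 rows, so that carriage counted at 1 or at 3 reads was the same. No member had reads in all 12 libraries, against 2 of the 8 Bacteroidota, and a member had reads in a median of 4.5 of the 12 libraries, against 10.5 for the Bacteroidota. Members were also scarcer, with a median of 191.5 reads over the 12 libraries, against 627 for the Bacteroidota. A forced loss mouse carried 2 to 4 of the 8 members (3.33 ± 0.816, SD, n = 6) and a go-through-tube mouse 3 to 7 (4.83 ± 1.47, SD, n = 6).

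**Figure D1:**
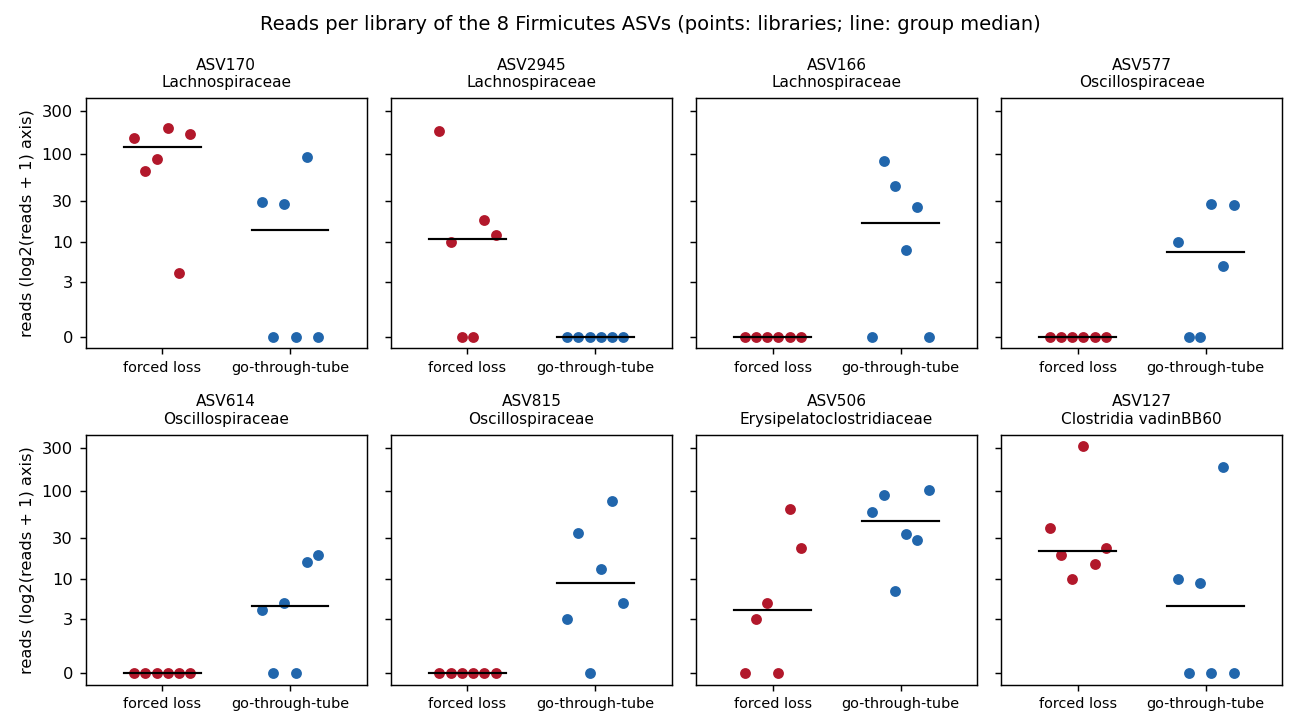
Each panel plots the reads of 1 Firmicutes ASV in the 12 libraries, on a log2(reads + 1) axis labelled in reads, with forced loss in red, go-through-tube in blue and the group median as a line. ASV166, ASV577, ASV614 and ASV815 lie at 0 in every forced loss library and ASV2945 lies at 0 in every go-through-tube library, while ASV170, ASV127 and ASV506 have reads in both groups.

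The families were not carried alike. Every forced loss mouse carried ASV170 and ASV127, and none carried a listed Oscillospiraceae. Every go-through-tube mouse carried ASV506 and at least 1 of the 3 Oscillospiraceae, and none carried ASV2945. In all, 5 of the 8 members had no read in 1 whole group, against 0 of the 8 Bacteroidota and 31.2% of the 16 rows. A count of 0 mice of 6 allows carriage in up to 45.9% of such mice (exact Clopper-Pearson interval, 95%).

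These 5 members and no other listed ASV passed the quasi-likelihood test of edgeR (adjusted p under 0.05), with ASV2945 higher and ASV166, ASV577, ASV614 and ASV815 lower under forced loss. Over the 16 rows 31.2% passed, 6.25% in the higher and 25% in the lower direction, and all of these calls were members. Each of the 5 met the filter of reads in at least 4 libraries only through the group that carried it, so these calls restate the empty group and are given as a description. Under a filter of reads in at least 6 libraries none of the 5 was tested. By an exact permutation test of reads 0 of 8 members passed after adjustment over the 16 rows, with a smallest adjusted p of 0.0643. Before adjustment 2 of 8 had a p under 0.05, ASV170 and ASV815, against 56.2% of the rows. By Fisher's exact test of carriage 0 of 8 passed after adjustment (smallest adjusted p = 0.194) and 1 of 8 before it, ASV815, against 6.25% of the rows.

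Among the Lachnospiraceae, ASV170 and ASV166 share a genus, the NK4A136 group, a common fibre-fermenting lineage of the mouse colon. ASV170 had 153, 65, 89, 198, 4 and 170 reads in forced loss replicates 1 to 6 and 29, 0, 28, 0, 94 and 0 in go-through-tube replicates 1 to 6. In 3 of the 6 forced loss libraries it exceeded all go-through-tube libraries. The groups overlapped, with forced loss replicate 5 nearly empty and go-through-tube replicate 5 high. The means were 113 ± 73.3 and 25.2 ± 36.5 reads (SD, n = 6 each), a ratio of 4.50. The fitted log2 difference was 2.16 with an SE of 1.42 (edgeR adjusted p = 0.188), and it was 3.30 without go-through-tube replicate 5 (edgeR adjusted p = 0.0913). With the listed totals as library size it was 0.43.

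ASV166 had 0 reads in the 6 forced loss libraries and 0, 84, 44, 8, 26 and 0 in go-through-tube replicates 1 to 6. The go-through-tube mean was 27 ± 32.7 reads (SD, n = 6), 9 times a floor of 3 reads per library (edgeR adjusted p = 0.0112). Such a multiple, here and below, is the observed mean over the floor and no confidence limit on the difference. Without replicate 2, which held 51.9% of the group's reads, the mean was 5.20 times the floor.

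The listed members of the genus thus differed between mice, and what the whole genus held cannot be read from them. Their summed reads came from ASV170 alone in 6 of 6 forced loss mice. In the go-through-tube mice ASV166 made up 100% of them in replicates 2 and 4, 61.1% in replicate 3, 21.7% in replicate 5 and none in replicate 1, and replicate 6 had neither. The sum of the listed members averaged 113 ± 73.3 reads in forced loss mice and 52.2 ± 47.4 in go-through-tube mice (SD, n = 6 each). Its ranges of 4 to 198 and 0 to 120 reads overlapped, and it combines members of opposite direction.

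ASV2945, an unclassified Lachnospiraceae, had 181, 10, 0, 0, 18 and 12 reads in forced loss replicates 1 to 6 and 0 in the 6 go-through-tube libraries. Replicate 1 held 81.9% of these reads. The forced loss mean of 36.8 ± 71.0 reads (SD, n = 6) was 12.3 times the floor (edgeR adjusted p = 0.0112). Without replicate 1 the mean was 8.00 ± 7.87 reads (SD, n = 5), or 2.67 times the floor. ASV2945 was then no longer past the threshold (edgeR adjusted p = 0.0553). In replicate 1 it was the leading member, with 48.5% of the Firmicutes reads of that mouse.

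The 3 listed Oscillospiraceae are ASV614 of Oscillibacter, a genus of slow-growing anaerobes that make valerate or butyrate, and ASV577 and ASV815, which are unclassified below the family. All 3 had 0 reads in the 6 forced loss libraries. In go-through-tube replicates 1 to 6 ASV577 had 10, 0, 0, 28, 5 and 27 reads, ASV614 had 4, 0, 5, 0, 16 and 19, and ASV815 had 3, 34, 0, 13, 77 and 5.

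ASV815 was the most widely carried, in 5 of 6 go-through-tube mice. Its mean of 22 ± 29.6 reads (SD, n = 6) was 7.33 times the floor (edgeR adjusted p = 0.0112, exact permutation p = 0.0152), and 3.67 times without replicate 5. Leaving out each library in turn kept its edgeR adjusted p between 0.00477 and 0.0320. These p-values, and those of ASV577 and ASV614 that follow, restate the empty forced loss group and do not measure how firm a difference is. ASV577 averaged 11.7 ± 12.8 reads (SD, n = 6), 3.89 times the floor (edgeR adjusted p = 0.0290). Its call held in 6 of 12 fits that left out a library. Removing any 1 of forced loss replicates 1, 2, 5 and 6 or of go-through-tube replicates 4 and 6 ended it, with edgeR adjusted p-values of 0.0509 to 0.0586. ASV614 was the scarcest member, with 44 reads in all and a mean of 7.33 ± 8.19 (SD, n = 6), 2.44 times the floor (edgeR adjusted p = 0.0458). It passed in 1 of 12 such fits, the one without go-through-tube replicate 2 (edgeR adjusted p = 0.0254), and in the other 11 its edgeR adjusted p was 0.0522 to 0.0973. DESeq2 did not call it (adjusted p = 0.0614 with its own size factors and 0.0708 with equal ones).

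The Oscillospiraceae covered the go-through-tube mice only jointly. All 3 were found in 3 of the 6 mice, 2 of them in 1 mouse and 1 of them in 2 mice. Summed over the family, go-through-tube replicates 1 to 6 held 17, 34, 5, 41, 98 and 51 reads (41 ± 32.5, SD, n = 6) and the 6 forced loss libraries none. The family sums of the groups thus did not overlap, while for single ASVs every member's groups overlapped, at 0 reads where nowhere else, as in the other rows (0% of 16 without overlap). All 3 rows carry a deposited p under 0.05 for this contrast and lie in the same direction, so the family sum is given with no test. In the same libraries the listed Bacteroidota had 944 to 8618 reads where the Oscillospiraceae had none and 452 to 2535 reads in go-through-tube mice. These are sums of chosen rows and not depths, and the part of library depth in the zeros was not tested.

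ASV614 is the only member that the table of ranks also lists. Its counts in the 6 go-through-tube libraries were the same there. It had 0 reads in the 7 Rank2 and the 6 Rank4 mice and 70 reads in 1 of 6 Rank3 mice, more than in any go-through-tube mouse, whose highest value was 19. The Rank2 to Rank4 titles name no treatment.

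ASV506 of Erysipelatoclostridium was the only listed member of the Bacilli. It had 0, 3, 5, 0, 64 and 23 reads in forced loss replicates 1 to 6 and 59, 90, 7, 33, 28 and 103 in go-through-tube replicates 1 to 6. Of the forced loss libraries 4 lay below every go-through-tube library, and replicates 5 and 6 lay within their range. The means were 15.8 ± 25.1 and 53.3 ± 37.5 reads (SD, n = 6 each), 3.37-fold higher under go-through-tube. The fitted log2 difference was -1.74 with an SE of 1.37 (edgeR adjusted p = 0.246), or -3.08 without forced loss replicate 5, which held 67.4% of the group's reads (edgeR adjusted p = 0.123). As a share of the listed reads of each library it passed an exact permutation test (adjusted p = 0.0231), a scale that moves with ASV3.

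ASV127 of the vadinBB60 group had 39, 19, 10, 316, 15 and 23 reads in forced loss replicates 1 to 6 and 10, 0, 9, 0, 184 and 0 in go-through-tube replicates 1 to 6. A single library dominated each group: forced loss replicate 4 held 74.9% of its group's reads and go-through-tube replicate 5 held 90.6%. The means of 70.3 ± 121 and 33.8 ± 73.7 reads (SD, n = 6 each) gave a log2 difference of 1.05 with an SE of 1.52 (edgeR adjusted p = 0.493). It was -0.67 without forced loss replicate 4 and 4.17 without go-through-tube replicate 5 (edgeR adjusted p = 0.672 and 0.0537). The medians were 21 and 4.5 reads. With the listed totals as library size the sign was reversed (log2 -1.44), and with TMM the value was -0.018.

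**Figure D2:**
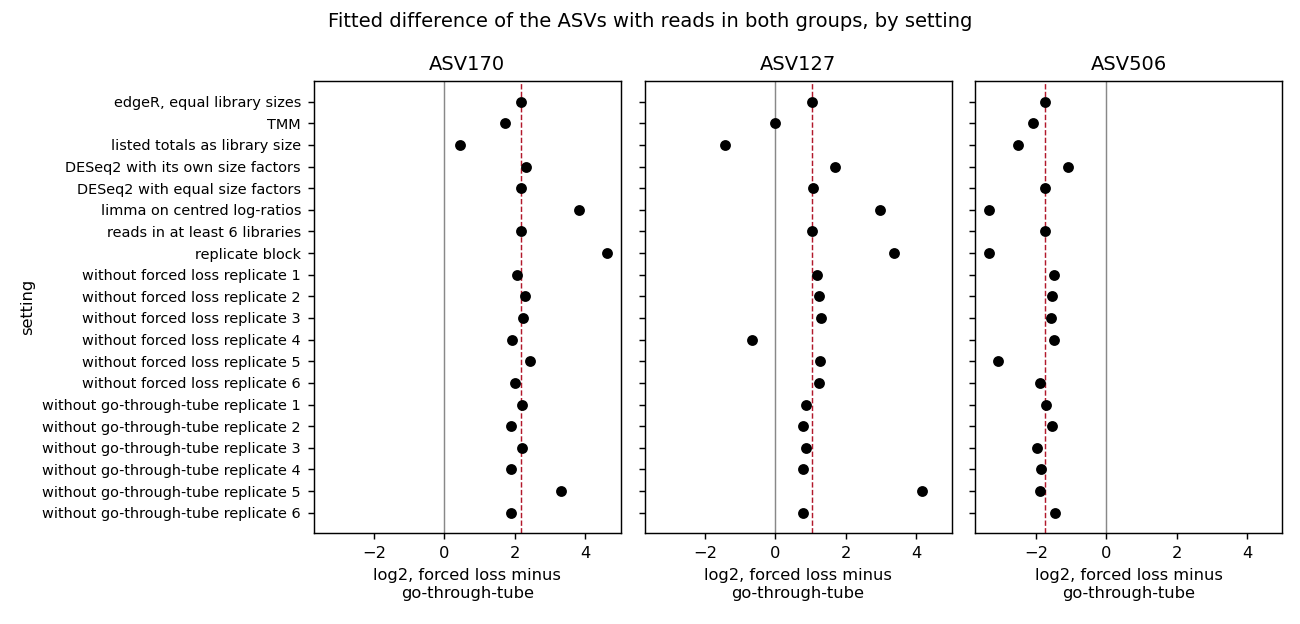
Each point is the fitted log2 difference, forced loss minus go-through-tube, of 1 of the 3 ASVs with reads in both groups under 1 setting, with the dashed line at the value from equal library sizes. ASV170 stays above 0 (lowest 0.43) and ASV506 below 0 (highest -1.08) in all settings drawn, and ASV127 lies below 0 with the listed totals, with TMM and without forced loss replicate 4.

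ASV170 and ASV127 come from different orders, yet they had the same carriage state in 12 of 12 libraries, and no other listed ASV matched either of them in all 12. Both were present in 6 of 6 forced loss mice and in go-through-tube replicates 1, 3 and 5, and both were absent from go-through-tube replicates 2, 4 and 6. In forced loss mice each was matched in 6 of 6 libraries by 6 listed ASVs, the other of the pair among them. The match thus rests on the go-through-tube mice, where ASV614 matched both in 5 of 6. Both peaked in forced loss replicate 4 and, within their group, in go-through-tube replicate 5. Their levels did not keep a fixed ratio. In forced loss replicate 3 ASV170 had 89 reads and ASV127 had 10, and in forced loss replicate 4 they had 198 and 316.

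The other members had looser partners. ASV577 and ASV815 matched in 11 of 12 libraries, and ASV577 and ASV614 in 10. ASV506 matched ASV226 of Parabacteroides, a Bacteroidota, in 11. ASV166 matched no ASV in more than 9 and ASV2945 none in more than 8. Of these matches, those of the 3 Oscillospiraceae include 6 forced loss libraries in which all were absent. Within the 6 go-through-tube mice ASV577 and ASV815 occurred together in 4 mice and ASV815 alone in 1. ASV815 matched ASV577, ASV506 and 3 Bacteroidota equally often, in 5 of 6 mice. ASV614 matched ASV170 and ASV127 in 5 of 6 mice and ASV577 in 4. ASV166 matched ASV577 in 2 of 6 mice, and ASV614 also in 2.

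Family sums show what the single ASVs add up to. The Lachnospiraceae held 334, 75, 89, 198, 22 and 182 reads in forced loss replicates 1 to 6 and 29, 84, 72, 8, 120 and 0 in go-through-tube replicates 1 to 6, or 150 ± 112 and 52.2 ± 47.4 (SD, n = 6 each). The difference in means of 97.8 reads was 61.0 without forced loss replicate 1 and 123 without forced loss replicate 5. The sums of all 8 members were 236 ± 174 and 180 ± 131 reads (SD, n = 6 each), with ranges of 97 to 514 and 82 to 430. That difference of 55.8 reads was smaller than either SD. Leaving out forced loss replicate 4 gave 0.267 reads, leaving out forced loss replicate 1 gave 28.5, and leaving out go-through-tube replicate 5 gave 106. For the listed Firmicutes as a whole the difference was therefore within the spread between mice.

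Within the reads of the 8 members, ASV170 made up 51.8% ± 29.9 per forced loss mouse and 12.9% ± 14.3 per go-through-tube mouse (SD, n = 6 each). ASV506 made up 13.6% ± 24.7 and 36.0% ± 24.2. The Oscillospiraceae made up 0% and 23.7% ± 15.8, from 5.38% to 50% of the reads of a go-through-tube mouse. ASV170 led in 3 forced loss mice and in no go-through-tube mouse. ASV506 led in 4 go-through-tube mice and in 1 forced loss mouse, replicate 5, where it held 63.4%. These shares use no library depth, but they are shares of chosen rows, not of the phylum.

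**Figure D3:**
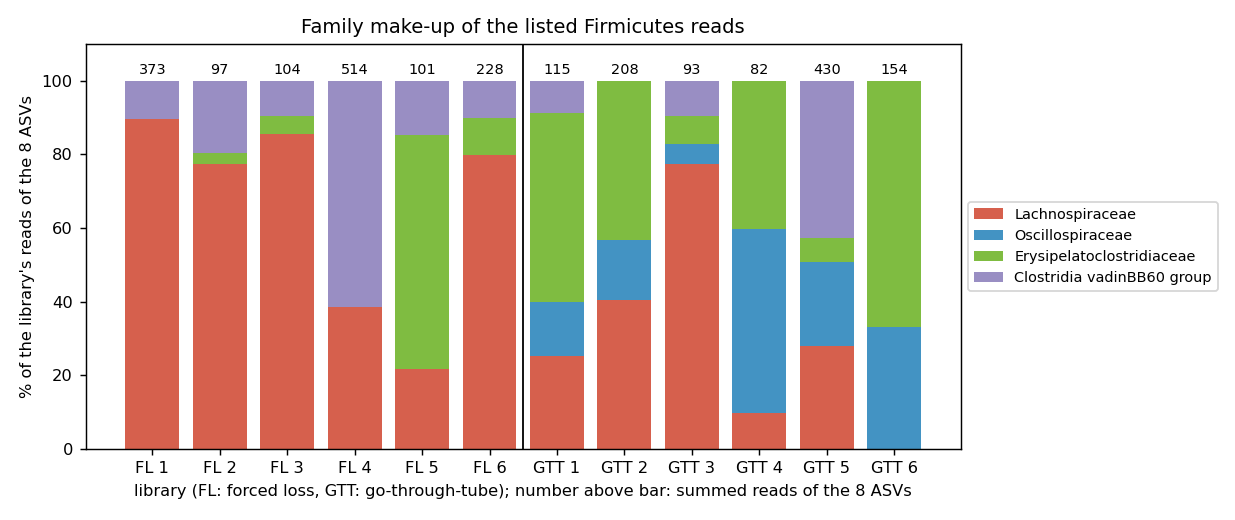
Each bar is 1 library and shows, in percent, how its reads of the 8 Firmicutes ASVs divide among the 4 families, with the summed reads printed above it. Oscillospiraceae (blue) appear in 6 of 6 go-through-tube bars and in 0 of 6 forced loss bars, and the Erysipelatoclostridiaceae (green) exceed 40% in 4 go-through-tube bars and in forced loss replicate 5.

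Log-ratios between families within a library need no scaling by its depth. They can still depend on depth through the 0.5 reads added to each sum and through whether a scarce family has any reads. Lachnospiraceae over Oscillospiraceae had a log2 of 7.79 ± 1.38 in forced loss mice and -0.49 ± 3.60 in go-through-tube mice (SD, n = 6 each), with ranges of 5.49 to 9.39 and -6.69 to 3.72 that did not overlap. The vadinBB60 group over Oscillospiraceae was 5.97 ± 1.76 and -3.04 ± 3.72, with ranges of 4.39 to 9.31 and -6.69 to 0.91. Because every forced loss sum of Oscillospiraceae was 0, these forced loss ratios are set by the other family and by the added reads. In go-through-tube replicates 2, 4 and 6 the vadinBB60 sum was 0, and in replicate 6 the Lachnospiraceae sum was too. Those ratios are set by the Oscillospiraceae and the added reads. With 3 reads added, the ranges of the first ratio, 3.06 to 6.81 and -4.17 to 3.23, overlapped, and those of the second, 2.12 to 6.73 and -4.17 to 0.89, did not.

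The ratios between the other families overlapped between the groups. The empty sums of the vadinBB60 group and the Lachnospiraceae in go-through-tube mice enter these ratios too. So do those of the Erysipelatoclostridiaceae in forced loss replicates 1 and 4. A ratio with 1 empty sum is set by the other family and the added reads. Lachnospiraceae over Erysipelatoclostridiaceae was 4.65 ± 3.99 in forced loss mice and -0.91 ± 3.85 in go-through-tube mice, and it was above 0 in 5 of 6 and 2 of 6 mice. The exceptions were forced loss replicate 5 at -1.52 and go-through-tube replicates 3 and 5 at 3.27 and 2.08. Erysipelatoclostridiaceae over the vadinBB60 group was -2.83 ± 4.23 and 3.45 ± 4.34, above 0 in 1 of 6 and 4 of 6 mice. Lachnospiraceae over the vadinBB60 group was 1.82 ± 1.57 and 2.55 ± 2.96. This difference of -0.72 was smaller than either SD and turned to 0.037 with 3 reads added. In go-through-tube replicate 6 this ratio stands at 0 only because both families were empty. Of these families ASV170 and ASV127 share their carriage, while ASV166 and ASV127 did so in 3 of 6 go-through-tube mice. Erysipelatoclostridiaceae over Oscillospiraceae was 3.14 ± 2.85 and 0.42 ± 1.30, where forced loss replicates 1 and 4 stand at 0 only because both families were empty (SD, n = 6 each, for all ratios here).

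Against the listed Bacteroidota, the 8 Firmicutes had a log2 ratio of -4.25 ± 1.56 in forced loss mice and -2.95 ± 1.42 in go-through-tube mice (SD, n = 6 each). In 5 of 6 forced loss libraries the value was below every go-through-tube library, from -5.76 to -4.07 against -3.68 or higher. Forced loss replicate 1, at -1.34, was above 5 of the 6 go-through-tube libraries, and go-through-tube replicate 5, at -0.07, was highest of all. The difference of -1.30 was -1.88 without forced loss replicate 1 and -0.73 without go-through-tube replicate 5. The Bacteroidota sums in this ratio were 4512 ± 2790 and 1341 ± 714 reads, and the Firmicutes sums 236 ± 174 and 180 ± 131 (SD, n = 6 each). Both means were higher in forced loss mice, so the lower mean ratio there does not go with a lower mean Firmicutes sum. What lies behind these sums was not tested.

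**Figure D4:**
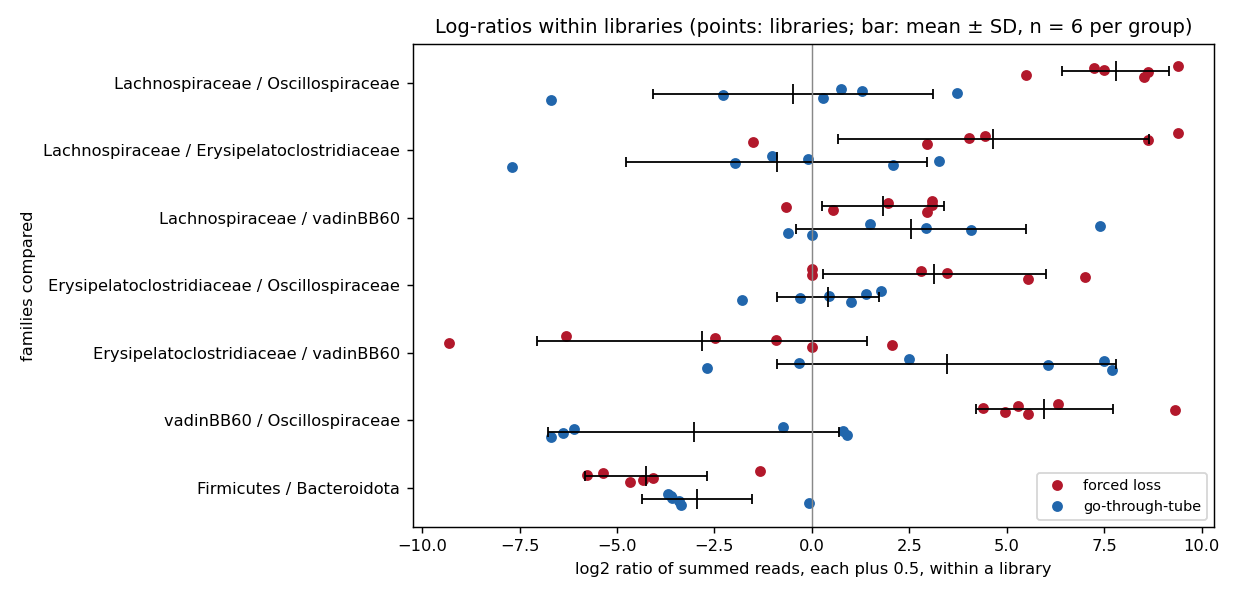
Points are the 12 libraries and bars the mean ± SD of each group (n = 6) for the log2 ratio, within a library, of the summed reads of 2 families or phyla, each plus 0.5. The groups separate for Lachnospiraceae and for the vadinBB60 group over Oscillospiraceae, and they overlap for the other 5 ratios. Every forced loss sum of Oscillospiraceae was 0, so these 2 separations rest on the added reads in part. With 3 reads added the first of the 2 overlaps.

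The p-values in the authors' deposited table were also set beside the counts of the members. For 7 of the 8 Firmicutes, all but ASV127, the deposited value equals the rank-sum p-value of the reads under the normal approximation with continuity correction, within 1e-05, against 50% of the 16 rows and 1 of 8 Bacteroidota. For ASV127 the deposited value was 0.0438 and the approximation gave 0.0526. The matches of ASV2945, ASV166, ASV577, ASV614 and ASV815 follow from carriage alone, as their rank-sum value is the same on any scale of the reads. These matches therefore cannot show that the deposited test used reads. As 0 of the 8 Bacteroidota had an empty group, the contrast between the phyla restates the empty groups in large part. An exact rank-sum permutation test gave larger values than the deposited ones for the sparse members. ASV2945, ASV166, ASV577 and ASV614, each carried by 4 of 6 mice of 1 group and by none of the other, had 0.0284 in the authors' deposited table and 0.0606 by exact permutation. ASV815 had 0.00962 in the authors' deposited table and 0.0152 by exact permutation. For ASV170, ASV506 and ASV127 the exact permutation values were 0.0411, 0.0390 and 0.0455. After adjustment over the 16 rows the exact rank-sum p was 0.0649 for each of the 8 members, and 56.2% of the rows, 4 of them Firmicutes, had an unadjusted exact p under 0.05.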

How the data were processed

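The 2 tables deposited by the authors hold counts of reads (ASV by library), per the file headers, and the first also has a summed count, a p-value whose test is not named, a fraction of a common total (under a header of percent). For primers, denoiser, taxonomy database and how ASVs were chosen for listing: not given in the sources used here. Amplicons were sequenced as paired reads on an Illumina instrument, per the labels' protocols. The total of 480358 reads was derived from the deposited fraction, which it gives in 16 of 16 ASVs within 1e-08.

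Columns were matched to samples by library name and grouped by title. The labels do not tie libraries to separate mice or cages, so p-values measure only how these libraries spread. All 30 library pairs of a group differed by chi-square (largest p 3.89e-40), so no pair held copied counts. The chi-square test takes reads as independent, which PCR reads are not. It therefore cannot tell whether the libraries came from separate mice.

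The reported fit was edgeR 4.0.16 (quasi-likelihood, equal library size of 40029.8 reads, no scaling factor, since factors from chosen ASVs would follow those that differ). All 16 ASVs had at least 10 reads in all and reads in at least 4 libraries. P-values were adjusted by Benjamini-Hochberg over the 16 ASVs, threshold 0.05. Each SE is the fitted log2 coefficient over the root of F. Two-sided exact permutation tests used all 924 splits of 6 against 6, whose smallest p is 0.00216, and Fisher's exact test used carriage (at least 1 read). Family sums and log-ratios have no test. Alternatives were TMM, listed totals, DESeq2 1.42.0, limma 3.58.1 on centred log-ratios, other filters, a replicate block, other carriage minimums and pseudocounts, and leaving out each library. The rank-sum permutation was chosen after seeing the data. The edgeR code was tested on simulated data. Floors cover counting error only, as PCR reads are not independent molecules. The interval for carriage is over mice.

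All 8 Firmicutes are named. For likeness, the ASVs with most libraries in the same carriage state were counted. Members, lists and tests were chosen with earlier results of these data known.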

Additional observations from a re-analysis of the deposited data

Results flagged for a closer look

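A gap test of each member, family sum and log-ratio in each group of 6 libraries placed 1 library far from the others in 7 of 29 groups. Chance places about 1 in 20 groups there for normal values, which sparse counts are not. The libraries far above the rest were forced loss replicate 1 for ASV2945 (181 reads), replicate 4 for ASV127 (316 reads) and replicate 5 for ASV506 (64 reads). Among go-through-tube mice it was replicate 5 for ASV170 (94 reads), ASV127 (184 reads) and the log2 ratio of Firmicutes over Bacteroidota (-0.0719). Rank3 replicate 5 stood apart for ASV614 (70 reads), where the other 5 Rank3 libraries were at 0. Go-through-tube replicate 5 was the library without ASV3 and carried 7 of the 8 members, the most of any mouse. The part of any library's depth in these values was not tested.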

How the results depend on the processing

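The 5 called Firmicutes, each empty in 1 group, also passed with TMM, by limma on centred log-ratios and with the listed totals. By DESeq2 4 of the 5 passed, without ASV614. These fits share the filter that the 5 met through 1 group only, so they restate the empty group. Over the 16 ASVs the number that passed was 8 with the listed totals and 12 by limma, where 4 were higher and 8 lower, against 1 higher and 4 lower by edgeR. The median change in log2 value per ASV was -1.40 and 1.57 with these scales and -0.44 with TMM. The median log2 value of the 16 ASVs was -0.35 by the reported fit, -1.98 with the listed totals, -0.36 by limma and -1.04 with TMM. The limma calls included ASV170 (log2 3.81, adjusted p = 0.0222) and ASV506 (log2 -3.32, adjusted p = 0.0222). Asking for reads in at least 6 libraries removed the 5 called members from the 11 ASVs fitted, and 0 of the other 3 members passed by edgeR (0 with an unadjusted p under 0.05).

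With a replicate block 0 members and 0 of the 16 ASVs passed by edgeR (0 members and 4 ASVs with an unadjusted p under 0.05). Same-numbered libraries showed no clear tendency to deviate together (Pearson's r from -0.33 to 0.18 over 16 ASVs, 6 pairs). With so few chosen and sparse ASVs this check cannot exclude a pairing, and the labels name none. No forced loss library correlated best with its own number.

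Leaving out each library gave 2 to 7 calls over the 16 ASVs and 2 to 5 among the Firmicutes. It gave 0 to 3 members with an adjusted and 1 to 3 with an unadjusted exact permutation p under 0.05, and 0 to 1 and 1 to 3 for carriage by Fisher's exact test. The number of members by exact permutation was 2 after adjustment on shares of listed reads and 4 before it on ranks. For carriage of at least 10 reads 0 members had an unadjusted p under 0.05 by Fisher's exact test. The log2 value of ASV127 was -0.018 with TMM, -1.44 with the listed totals, and -0.67 to 4.17 when a library was left out. Its summed difference of 36.5 reads ranged from -12.6 without forced loss replicate 4 to 66.5 without go-through-tube replicate 5. Adding 3 reads changed the log-ratio differences to 5.38 for Lachnospiraceae and 5.34 for the vadinBB60 group over Oscillospiraceae, and to 0.037 for Lachnospiraceae over the vadinBB60 group. The last ranged from -1.36 to 0.25 when a library was left out. Apart from the larger added reads, the causes of these changes were not tested.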
